A study of Mus musculus with 4 samples.

Results

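The ATP-binding cassette (ABC) and organic anion (Slco) transporter genes were described in mouse liver before and after an acetaminophen overdose, with and without the transcriptional coactivator YAP. Members were the array's probe sets whose gene symbol begins with Abc, a letter from a to g and a digit, or with Slco and a digit. This gave 63 genes of 30142 named genes, 48 Abc and 15 Slco genes, with 1 probe set each, so that no choice between probe sets of a member was needed. The 4 arrays, 1 for each group, crossed genotype (wildtype or YAP-KO) with time (0 h or 24 h). All groups were liver lysates of male mice, and each array held RNA pooled from 3 mice. Mice at 0 h were fasted and had no overdose, and mice at 24 h had been fasted and given 300 mg/kg acetaminophen into the peritoneum. The labels describe the wildtype mice as floxed for YAP. The Cre driver, the cells in which YAP was deleted, the strain and the age are not given in the sources used here. A group of mice at 24 h without acetaminophen was not analysed here, so the overdose and the time that passed cannot be told apart in a 24 h difference.

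Hepatocytes move bile acids, bilirubin conjugates, sterols, phospholipids and drugs from blood to bile. Organic anion transporting polypeptides, encoded by Slco genes, take up anions from blood across the basolateral (sinusoidal) membrane. ABC transporters use ATP to pump substrates out, across the canalicular membrane into bile or back across the basolateral membrane into blood, and other members of the same superfamily work in peroxisomes, mitochondria and lysosomes or, in the case of ABCE and ABCF proteins, act on ribosomes and carry nothing. Acetaminophen conjugates leave hepatocytes through several of these pumps.

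Values are the deposited log2 expression values, in which a difference of 1 is 2-fold, and the level of a probe set is compared across arrays and never with that of another probe set. Each group was hybridised once, on pooled RNA, so the spread between mice is unknown and the 24 h and genotype differences are sizes without a p-value. Where 4 levels of a gene stand together, their order is untreated wildtype, untreated YAP-KO, wildtype 24 h and YAP-KO 24 h. A pair in parentheses after them gives the 24 h minus 0 h difference in wildtype and in YAP-KO. Genes were kept where the mean over the 4 arrays reached 4.33, the 40th percentile of named genes. This left 18085 genes, 44 members among them. The 19 members below it lay between 3.55 and 4.45 on all arrays and their differences between -0.35 and 0.27. They were Abca4, Abca12, Abca13, Abca14, Abca15, Abca16, Abca17, Abcb5, Abcb9, Abcc8, Abcc12, Abcg4, Slco1c1, Slco4a1, Slco4c1, Slco5a1, Slco6b1, Slco6c1 and Slco6d1. No detection call was used, so whether these genes were detected is unknown. Of the 44 kept, 1 (Slco1a6) was below the filter level on an array, that of wildtype at 24 h, and no member was within 0.01 of the top value of an array.

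The array medians over all probe sets were 4.47, 4.46, 4.32 and 4.36 in that order. Yap1 was at 7.54, 6.31, 8.24 and 6.01, lower in YAP-KO at both times. Of 10 hepatocyte markers measured, 5 were within 0.01 of the top value on all arrays, where a higher or somewhat lower amount may not show. At 2-fold 0 were lower in wildtype (against 5.87% of all genes kept) and 1 in YAP-KO (against 2.24%). This was Hnf4a (12.29, 13.09, 11.39 and 11.64), which was also the marker furthest from the top value. The others included Cyp2e1 (19.86, 19.83, 19.38 and 19.87), Cps1 (19.84, 19.81, 19.08 and 19.85) and Fabp1 (19.13, 19.03, 18.52 and 18.23). Cyp2e1 and Cps1 were also near the array maxima (19.86, 19.83, 19.93 and 19.88) except in wildtype at 24 h, so their differences may be understated. Some markers of other cell types were higher at 24 h. Over all genes kept, 12.8% were higher by 2-fold in wildtype and 4.79% in YAP-KO. At 2-fold, 4 of 6 neutrophil, 5 of 6 monocyte, 4 of 6 Kupffer cell, 3 of 8 sinusoidal endothelial and 1 of 4 cholangiocyte markers that passed the filter were higher in wildtype, and 3, 5, 2, 1 and 1 in YAP-KO. Mean levels of the measured neutrophil markers were 5.28, 5.43, 7.39 and 6.23, and those of monocyte markers 6.51, 6.43, 9.15 and 8.60. The monocyte markers differed among themselves between the genotypes at 24 h. Cd14 (-3.73) and Itgam (-0.98) were lower in YAP-KO, Ly6c2 (0.97) and Ccr2 (0.46) were higher, and Cd68 (-0.02) and Lyz2 (-0.01) were almost equal. Kupffer cell markers had means of 8.26, 8.21, 9.63 and 8.82, stellate cell markers 8.37, 8.40, 8.54 and 8.29, cholangiocyte markers 4.88, 4.94, 5.35 and 5.15, and hepatocyte markers 19.01, 19.04, 18.73 and 18.84. The cholangiocyte marker that was higher was Sox9 (6.52, 6.73, 9.05 and 8.20). The 24 h differences of Krt19, Krt7, Epcam and Cftr lay between -0.19 and 0.07 in both genotypes. In these bulk samples fewer cells of a type and less RNA per cell cannot be told apart, and the part of changing cell composition in the transporter differences was not tested.

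In wildtype liver at 24 h, transporters of the main hepatocyte routes for bile acids and sterols were far below their 0 h level, in particular the uptake genes Slco1b2 and Slco1a1 and the export genes Abcb11, Abcg8 and Abcg5. A smaller set was higher, including the drug pump gene Abcb1a and the basolateral efflux genes Abcc1 and Abcc4. Of the 44 members kept, 16 were lower by 2-fold or more (36.4%, against 5.87% of all genes kept). The higher members were 7 (15.9%, against 12.8% of all genes kept, a share near that of all genes). The median difference of the kept members was -0.24 (0.07 over all genes kept), ranging from -4.37 to 2.69. In YAP-KO liver 10 members were lower (22.7%, against 2.24% of all genes) and 1 higher (2.27%, against 4.79%), with a median of -0.17 (0.07 over all genes). After centring of the arrays on their medians, the YAP-KO counts were 9 lower and 3 higher. In both directions together, 18.7% of all genes kept were at 2-fold in wildtype and 7.04% in YAP-KO, where 23 and 11 of the 44 members were. At 1.5-fold 20 of the 44 members differed in YAP-KO (6 higher and 14 lower), against 3555 of the 18085 genes kept (19.7%).

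The canalicular efflux genes were 8, all kept. In wildtype 5 were lower by 2-fold at 24 h (against 5.87% of all genes kept), 1 was higher (against 12.8%), and the median was -1.59. In YAP-KO 2 were lower (against 2.24%) and 0 higher (against 4.79%), with a median of -0.27. Abcb11 encodes the bile salt export pump, which sets the flow of bile acids into bile. It was at 15.63, 15.47, 11.29 and 13.60. The wildtype 24 h array was thus the lowest, and the YAP-KO 24 h array lay between it and the 0 h arrays. The 24 h difference was -4.34 (20.3-fold) in wildtype, the 31st lowest of 18085 genes, and -1.87 (3.66-fold) in YAP-KO. The proximal promoter of Abcb11 is shown here because bile acids activate this gene through the nuclear receptor FXR, whose classical site is an inverted repeat, and because Slco1b2, the member with the lowest 24 h difference in wildtype, can be set beside it. Promoters run from 250 bases before to 50 after the start, in GRCm38.p6 from RefSeq, and are printed 5′ to 3′ on the gene's strand. Capitals mark matches to the motifs described after them.
Abcb11, chr2:69342567-69342866, minus strand: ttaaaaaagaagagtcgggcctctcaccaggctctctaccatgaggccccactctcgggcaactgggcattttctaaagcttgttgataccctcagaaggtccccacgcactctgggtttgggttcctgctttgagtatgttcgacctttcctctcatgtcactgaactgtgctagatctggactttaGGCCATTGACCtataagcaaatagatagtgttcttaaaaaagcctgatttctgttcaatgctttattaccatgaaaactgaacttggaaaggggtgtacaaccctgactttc
Slco1b2, chr6:141629268-141629567, plus strand: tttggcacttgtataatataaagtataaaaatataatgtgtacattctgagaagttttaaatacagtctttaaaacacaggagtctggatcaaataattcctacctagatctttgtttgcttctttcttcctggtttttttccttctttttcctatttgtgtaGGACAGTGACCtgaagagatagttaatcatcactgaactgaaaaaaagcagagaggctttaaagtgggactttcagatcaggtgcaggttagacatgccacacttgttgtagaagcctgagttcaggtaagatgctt
Slco1a1, chr6:141946913-141947212, minus strand: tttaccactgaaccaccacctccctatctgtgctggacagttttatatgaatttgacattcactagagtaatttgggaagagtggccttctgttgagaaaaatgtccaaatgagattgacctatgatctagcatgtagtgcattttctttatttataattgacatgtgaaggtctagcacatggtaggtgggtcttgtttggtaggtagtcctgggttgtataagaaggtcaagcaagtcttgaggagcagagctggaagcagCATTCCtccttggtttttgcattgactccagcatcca
In Abcb11 and Slco1b2 the capitals are matches to a loose form of the FXR inverted repeat, GNNCA and TGNNC with any 1 base between them. They lie at bases -62 to -52 of Abcb11 (GGCCATTGACC) and -87 to -77 of Slco1b2 (GGACAGTGACC), counted from the start base as 1 with no base 0. The same letters are in 8.21% of 32851 promoters of this length, and in 8 of the 62 such promoters of 51 members, 1 for each of 8 members (Abca2, Abca3, Abcb10, Abcb11, Abcc2, Abcc12, Abcf1 and Slco1b2). Slco1a1, whose 24 h differences were close to those of Slco1b2, held no match to them. Its capitals are a match to GGAATG, the core of the TEAD site that YAP's partner factors bind, on the other strand at bases 14 to 19, and 14.7% of all promoters hold this motif on either strand. A match is a string of letters and not a measured site. All 5 motifs were searched on both strands. None of the 51 members held the letters of an HNF1 site, GTTAAT and ATT with any 1 base between them (0.399% of all promoters), or of an HNF4 site, AGGNCA repeated after any 1 base (0.381%), which says only that these letters are not in these windows.

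Abcg5 and Abcg8 encode both subunits of the heterodimer that exports cholesterol and plant sterols into bile, and they lie head to head. Abcg8 was at 11.57, 10.88, 8.59 and 10.25. Abcg5 was at 11.36, 10.45, 9.50 and 10.52. For both genes the wildtype array was the higher of the genotypes at 0 h and the lower at 24 h. The 24 h differences were -2.98 and -1.86 in wildtype and -0.63 and 0.07 in YAP-KO, for Abcg8 and Abcg5. Against the YAP-KO 0 h array, the wildtype 24 h difference of Abcg5 was -0.95, below 2-fold. The shared promoter region is shown because both genes read from it in opposite directions.
Abcg5, chr17:84682962-84683261, minus strand: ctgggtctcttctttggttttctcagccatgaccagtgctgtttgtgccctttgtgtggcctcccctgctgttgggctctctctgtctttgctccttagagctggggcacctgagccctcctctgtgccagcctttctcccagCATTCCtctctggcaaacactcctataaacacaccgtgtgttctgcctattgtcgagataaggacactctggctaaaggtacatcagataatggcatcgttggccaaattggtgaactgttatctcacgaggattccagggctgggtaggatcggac
The RefSeq starts of Abcg5 and Abcg8 are 110 bases apart and their promoter windows share 209 bases. The capitals are a GGAATG match on the other strand at bases -107 to -102 of Abcg5, which are the bases -8 to -3 of Abcg8.

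The remaining canalicular genes that were lower in wildtype were Abcb4 and Abcc2. Abcb4 encodes the phospholipid floppase that protects bile ducts from bile salts. It was at 13.34, 12.97, 11.66 and 11.85, with both 24 h arrays below both 0 h arrays (-1.68 and -1.12). Abcc2 encodes MRP2, the pump for bilirubin and drug conjugates. It was at 16.23, 15.87, 14.73 and 15.69, so the wildtype difference was -1.50 and that of YAP-KO -0.18. Abcg2, the breast cancer resistance protein gene, was at 10.49, 10.04, 10.04 and 9.68, and did not reach 2-fold in any comparison. Its probe set carries 1 symbol but 2 gene identifiers.

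Abcb1a went the other way. It is 1 of the 2 mouse genes of P-glycoprotein, the multidrug pump. It was at 6.14, 6.06, 8.20 and 6.25, so the wildtype 24 h array alone was high. The 24 h difference was 2.06 (4.17-fold) in wildtype and 0.19 in YAP-KO. The paralog Abcb1b was at 5.51, 5.67, 6.09 and 5.53. Its wildtype difference of 0.58 stayed below 2-fold. The paralogs are close in sequence and the array may not fully separate them. P-glycoprotein is also made by endothelial cells and leukocytes, whose markers differed between the arrays as given above, and their part in this difference was not tested. The promoter of Abcb1a is shown for its match to the core of the antioxidant response element bound by NRF2, TGACNNNGC.
Abcb1a, chr5:8566841-8567140, plus strand: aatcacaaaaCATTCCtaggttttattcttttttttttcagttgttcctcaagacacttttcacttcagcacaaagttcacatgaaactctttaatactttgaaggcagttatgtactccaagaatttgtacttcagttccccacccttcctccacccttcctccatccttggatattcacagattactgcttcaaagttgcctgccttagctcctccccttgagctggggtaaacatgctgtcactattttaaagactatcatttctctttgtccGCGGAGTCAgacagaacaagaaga
That match, GCGGAGTCA, lies on the other strand at bases 27 to 35, and the capitals at bases -240 to -235 are a GGAATG match. The antioxidant motif was in 12.4% of all promoters and in 10 of the 62 member promoters, those of 8 members (Abca8b, Abcb1a, Abcc2, Abcc4, Abcc10, Slco4c1, Slco6b1 and Slco6d1), and GGAATG in 12 of the 62, those of 11 members.

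The basolateral efflux genes were 6, all kept, with differences in both directions. In wildtype 2 were higher at 24 h (against 12.8% of all genes kept) and 1 was lower (against 5.87%), with a median of 0.36. In YAP-KO 0 were higher (against 4.79%) and 1 lower (against 2.24%), with a median of -0.06. Abcc1 encodes MRP1, which exports glutathione conjugates. It was at 5.09, 5.16, 6.50 and 5.95, both 24 h arrays lying above both 0 h arrays (1.41 and 0.79). Abcc4 encodes MRP4, a pump for bile acids with glutathione and for cyclic nucleotides. It was at 5.43, 5.89, 6.69 and 6.81 (1.26 and 0.92), and the YAP-KO difference was 1.02 after median centring. Against the YAP-KO 0 h array, the wildtype difference of Abcc4 was 0.80, below 2-fold. Abcc3 encodes MRP3, the pump for glucuronides such as that of acetaminophen. It was at 12.89, 12.74, 12.99 and 11.55, and the YAP-KO 24 h array stood apart. Its 24 h difference was 0.10 in wildtype and -1.19 in YAP-KO. Abcc6, whose product releases ATP from hepatocytes, was at 9.32, 8.87, 6.94 and 8.19 (-2.38 and -0.68). Abcc5, a cyclic nucleotide pump gene, was at 5.25, 5.32, 5.76 and 5.33. Abca1, which loads cholesterol onto apolipoprotein A-I, was at 12.24 and 12.45 in wildtype at 0 h and 24 h and at 13.15 and 13.02 in YAP-KO, so it differed by genotype more than by time.

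**Figure D1:**
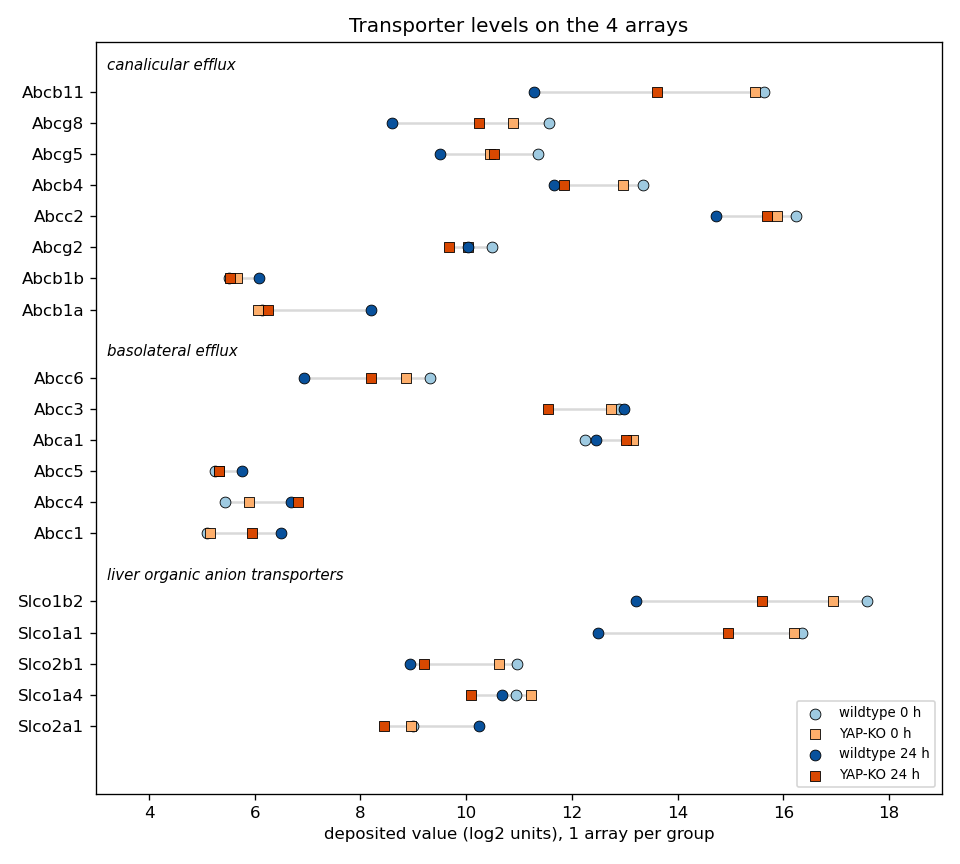
Deposited log2 values (x axis) of the canalicular efflux, basolateral efflux and liver organic anion transporter genes on the 4 arrays, with circles for wildtype and squares for YAP-KO, pale at 0 h and dark at 24 h; a grey line joins the lowest and highest value of a gene. The wildtype 24 h array is lowest for Abcb11 (11.29), Slco1b2 (13.21) and Slco1a1 (12.49) and highest for Abcb1a (8.20) and Slco2a1 (10.24).

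Among the organic anion transporters found in rodent liver, 3 of 5 were lower by 2-fold in wildtype at 24 h (against 5.87% of all genes kept). There 1 was higher (against 12.8%), and the median was -2.04. In YAP-KO 4 were lower (against 2.24%) and 0 higher (against 4.79%), with a median of -1.25. Slco1b2 encodes OATP1B2, which takes up unconjugated bile acids and many drugs. It was at 17.58, 16.93, 13.21 and 15.59. Its wildtype difference of -4.37 (20.7-fold) was the 29th lowest of 18085 genes, and that of YAP-KO was -1.34 (2.53-fold). Slco1a1 encodes OATP1A1, a broad anion carrier that is more abundant in male liver. It was at 16.36, 16.20, 12.49 and 14.95 (-3.87 and -1.25), the wildtype difference being the 44th lowest. For both genes the wildtype 24 h array was lowest and the YAP-KO 24 h array lay between it and the 0 h arrays. Slco2b1, a carrier of steroid sulfates, was at 10.97, 10.62, 8.93 and 9.20, close together in the genotypes (-2.04 and -1.42).

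Slco1a4 and Slco2a1 differed from this. Slco1a4, a digoxin carrier gene, was at 10.95 and 10.67 in wildtype at 0 h and 24 h and at 11.22 and 10.10 in YAP-KO, a difference of -0.28 in wildtype and -1.12 in YAP-KO. Against the wildtype 0 h array the YAP-KO difference was -0.85, below 2-fold. Slco2a1 encodes the prostaglandin transporter, which is expressed in endothelial cells. It was at 8.99, 8.95, 10.24 and 8.44 (1.25 and -0.51). The wildtype 24 h array was the highest and the YAP-KO 24 h array the lowest. Sinusoidal endothelial markers differed among themselves: at 24 h Kdr (10.23 to 9.60), Stab2 (10.02 to 10.17) and Clec4g (10.99 to 10.73) were within 2-fold in wildtype, whereas Lyve1 went from 8.06 to 13.57 and Cdh5 from 9.98 to 13.21 there, and from 8.80 to 9.69 and from 10.02 to 11.72 in YAP-KO. Mean levels over the 8 markers were 8.89, 8.99, 10.18 and 9.47, and their part in the Slco2a1 difference was not tested.

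Of 10 other organic anion transporters measured, 3 passed the filter and 0 reached 2-fold. Slco1a5 was at 5.58, 5.72, 4.88 and 4.85, Slco1a6 at 5.06, 4.85, 4.13 and 4.43, and Slco3a1 at 5.38, 5.59, 5.82 and 5.71.

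Outside bile formation, members of the ABCA group, which move lipids, were mostly lower in wildtype at 24 h. Of the 8 kept (Abca1 aside), 5 were lower by 2-fold in wildtype (against 5.87% of all genes kept) and 0 higher (against 12.8%), with a median of -1.12. In YAP-KO 2 were lower (against 2.24%), with a median of -0.41. Abca8a was at 11.83, 11.27, 7.56 and 9.42, with a wildtype difference of -4.27 (19.3-fold, the 33rd lowest of all genes kept) and a YAP-KO difference of -1.85. Its neighbour Abca8b was at 10.44, 10.50, 8.40 and 10.25 (-2.04 and -0.25), so the wildtype 24 h array alone was low. Abca6 was at 15.52, 15.15, 13.01 and 14.14 (-2.51 and -1.01, or -0.91 in YAP-KO after median centring). Abca3, the surfactant lipid transporter gene, was at 8.29, 8.05, 7.13 and 7.48 (-1.16 and -0.57), and -0.92 in wildtype against the YAP-KO 0 h array. Abca2, of lysosomal membranes, was at 7.63, 7.75, 6.55 and 6.85 (-1.08 and -0.90). Its wildtype difference was -0.93 after median centring and its YAP-KO difference -1.01 after quantile normalization. Abca5 (6.14 and 6.98 in wildtype at 0 h and 24 h), Abca7 (4.89 on both) and Abca9 (6.33 and 5.65) did not reach 2-fold in any comparison.

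Neighbouring members could be set side by side, in the gene order of the RefSeq table. Along chromosome 11 the order is Abca8b, Abca8a, Abca9, Abca6 and Abca5, and the wildtype differences were -2.04, -4.27, -0.68, -2.51 and 0.84. Abca9, below 2-fold, thus lies between Abca8a and Abca6, which were lower by more than 2-fold. On chromosome 6, Slco1b2 (-4.37) and Slco1a1 (-3.87) lie on either side of Slco1a4 (-0.28), and the flanking Slco1c1 was below the filter. On chromosome 5, Abcb1a (2.06) and Abcb1b (0.58) are followed by Abcb4 (-1.68). Members of these families are similar in sequence, and overlap of their signals on the array cannot be assessed from the deposited values.

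**Figure D2:**
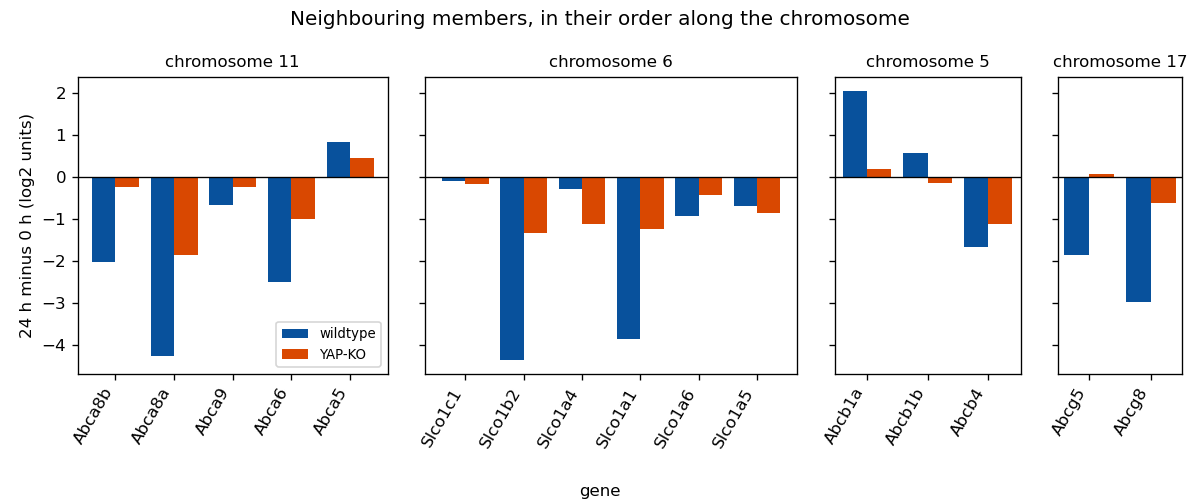
Differences between 24 h and 0 h (y axis, log2 units) for members that lie next to each other, drawn in gene order for 4 clusters on chromosomes 11, 6, 5 and 17, with blue bars for wildtype and orange bars for YAP-KO, 1 array per group. Slco1a4 (-0.28 in wildtype) lies between Slco1b2 (-4.37) and Slco1a1 (-3.87), and Abca5 (0.84) is the only gene above 0 in its cluster.

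Among intracellular members, the peroxisomal genes Abcd2 and Abcd3 differed in opposite directions, by 2-fold or more in both genotypes. Abcd2 encodes a carrier of very long chain acyl-CoA. It was at 7.41, 6.66, 10.10 and 9.61, both 24 h arrays standing far above both 0 h arrays. Its differences of 2.69 and 2.95 (6.45-fold and 7.73-fold) were the highest of the members in each genotype, and it was the only member higher by 2-fold in YAP-KO. Abcd3, whose protein PMP70 imports branched and dicarboxylic acyl-CoA and C27 bile acid intermediates, was at 16.18, 15.75, 14.66 and 14.54 (-1.52 and -1.21). Abcd4, of lysosomal cobalamin export, was at 5.52, 5.55, 5.39 and 5.40. In the mitochondrial group Abcb6, a porphyrin transporter gene, was at 8.65, 8.17, 7.36 and 7.99 (-1.29 in wildtype, or -0.81 against the YAP-KO 0 h array, and -0.18 in YAP-KO). Abcb10, of the mitochondrial inner membrane, was at 7.26, 6.79, 6.35 and 7.02 (-0.91, or -1.11 after quantile normalization, and 0.23), and Abcb8 stayed between 5.64 and 5.89 on all arrays.

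The ABCE and ABCF genes, whose products lack membrane domains and act in ribosome recycling and translation, were 4. Of these, 2 were higher by 2-fold in wildtype (against 12.8% of all genes kept) and 0 in YAP-KO (against 4.79%). Abce1 was at 13.21, 13.49, 15.17 and 14.37 (1.96 and 0.88, or 1.16 in YAP-KO against the wildtype 0 h array). Abcf2 was at 9.52, 9.47, 10.53 and 9.90 (1.01, or 0.89 after quantile normalization, and 0.43). Abcf1 (0.84 and 0.11) and Abcf3 (0.48 and 0.63) did not reach 2-fold. The other ABCB, ABCC and ABCG genes kept were Abcc9, the regulatory subunit gene of potassium channels of vascular muscle (0.98 in wildtype, or 1.13 after median centring, and 0.58 in YAP-KO), Abcg3 (0.26 and 0.99, or 1.09 in YAP-KO after median centring), the sterol exporter gene Abcg1 (0.19 and 0.35) and Abcc10 (-0.21 and 0.02).

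At 24 h some bile acid genes (Slco1a1, Slco1b2 and Abcb11) and the sterol genes Abcg5 and Abcg8 were higher in YAP-KO than in wildtype while Abcb1a, Slco2a1 and Abcc3 were lower. Other canalicular and liver organic anion transporter genes were within 2-fold, such as Abcb4 (0.19), Slco2b1 (0.27) and Slco1a4 (-0.57). At 0 h 0 of 44 members differed by 2-fold (1.01% of all genes kept were higher and 0.857% lower, 1.87% together), and 5 did at 1.5-fold (8.19% of all genes), shares too close to those of all genes to set the members apart, with Abca1 furthest above (0.91, or 1.09 after quantile normalization) and Abcg5 furthest below (-0.91). At 24 h 9 members were higher by 2-fold in YAP-KO (20.5%, against 3.25% of all genes) and 3 were lower (6.82%, against 5.82%, a share near that of all genes). Slco1a1 (2.46), Slco1b2 (2.38) and Abcb11 (2.31) were the highest, followed by Abca8a (1.86), Abca8b (1.85), Abcg8 (1.66), Abcc6 (1.25), Abca6 (1.13) and Abcg5 (1.02, or 0.98 after median centring). Abcc2 was 0.96 higher, or 1.16 after quantile normalization. The lower members were Abcb1a (-1.95), Slco2a1 (-1.80) and Abcc3 (-1.44). All 9 higher members were also among the 16 that were lower at 24 h in wildtype, and the 2 comparisons share the wildtype 24 h array.

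**Figure D3:**
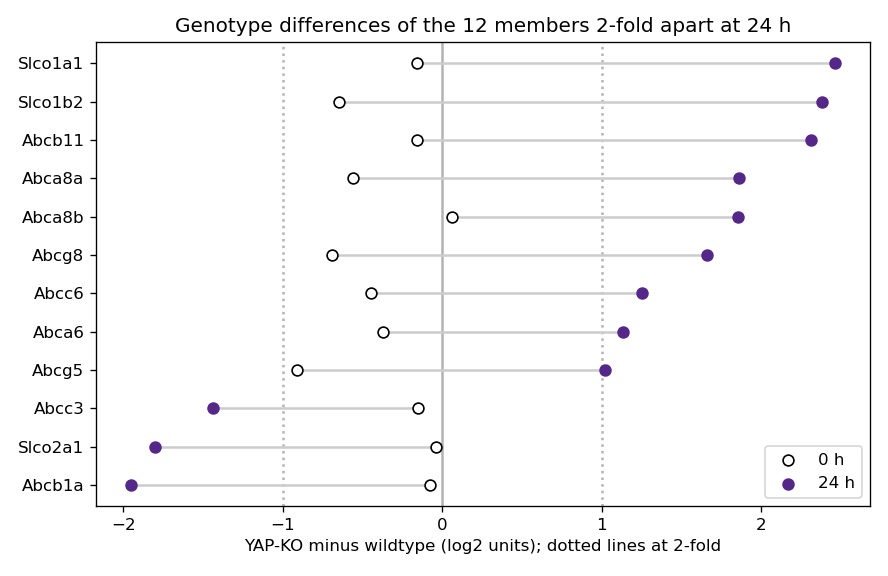
YAP-KO minus wildtype differences (x axis, log2 units) at 0 h (open points) and at 24 h (filled points) for the 12 members at least 2-fold apart at 24 h, with dotted lines at 2-fold. All open points lie within 2-fold, while the filled points run from -1.95 for Abcb1a to 2.46 for Slco1a1.

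The difference of the 24 h responses, YAP-KO minus wildtype, uses all 4 arrays. It was at least 1 in 12 members (27.3%, against 5.57% of all genes) and -1 or less in 4 (9.09%, against 7.59%). It was 3.03 for Slco1b2, 2.62 for Slco1a1, 2.47 for Abcb11, 2.42 for Abca8a, 2.35 for Abcg8 and 1.93 for Abcg5, and -1.87 for Abcb1a, -1.76 for Slco2a1, -1.29 for Abcc3 and -1.08 for Abce1 (-0.92 after quantile normalization). Of the 16 members lower by 2-fold in wildtype, 16 had a smaller difference in YAP-KO and 8 were still lower by 2-fold there, with medians of -2.04 in wildtype and -0.95 in YAP-KO. A smaller YAP-KO difference was also found in 96.5% of all genes lower by 2-fold in wildtype, a share near that of the members, and choosing genes by their wildtype value favours it. Of the 7 members higher in wildtype, 6 had a smaller difference in YAP-KO, as had 94.1% of all such genes, and Abcd2 was the exception. Signs were opposite in the genotypes, with 2-fold in either, for Abcc3, Abcg5 and Slco2a1, while 3.08% of all genes met this rule. The signs were no longer opposite for Abcc3 after quantile normalization (-0.04 in wildtype) or for Abcg5 against the wildtype 0 h array (-0.84 in YAP-KO).

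**Figure D4:**
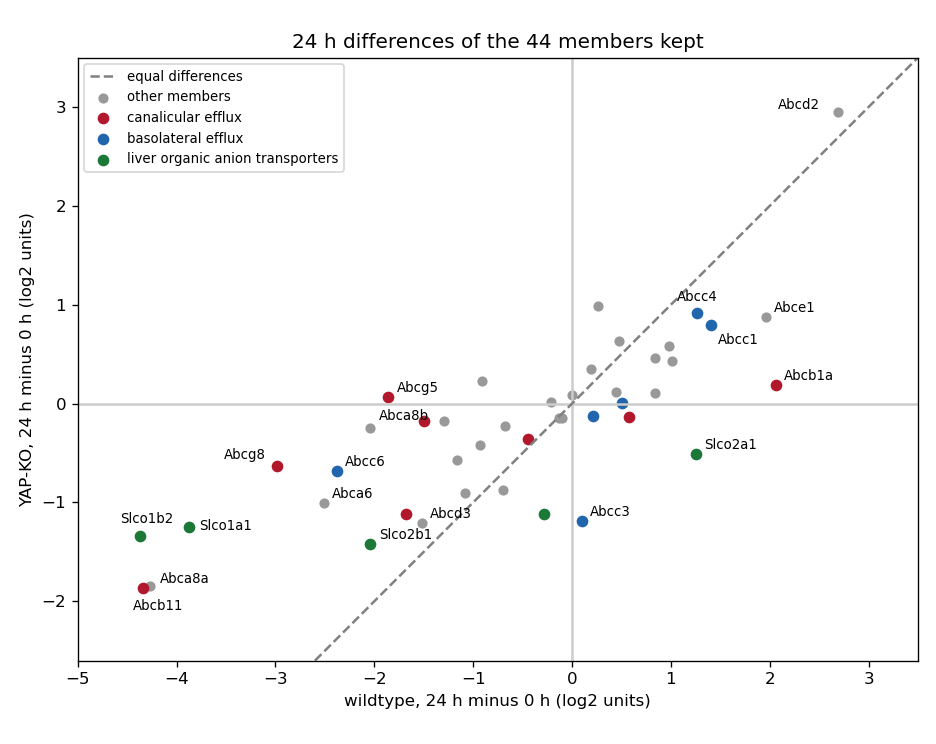
Differences between 24 h and 0 h in wildtype (x axis) and YAP-KO (y axis), in log2 units, for the 44 members kept, coloured by role, with a dashed line where both are equal. Slco1b2, Slco1a1, Abcb11 and Abca8a lie far left of the line with wildtype differences of -3.87 or less, while Abcd2 (2.69 and 2.95) lies close to it.

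The arrays allow a single test, limma with additive terms for genotype and time, whose error comes from the interaction, with 1 residual degree of freedom. Each gene's error was moderated by limma with a variance estimated over all genes kept, so the p-values also rest on that shared variance. No gene passed a Benjamini-Hochberg adjusted p under 0.05, members included, for time or genotype (0 of 18085 in limma). At an unadjusted p under 0.05, 18 of 44 members passed for time (40.9%, against 15.4% of all genes) and 2 for genotype (4.55%, against 2.34%), Abca1 (0.74) and Abcd2 (-0.62). The lowest adjusted p of a member was 0.283 for time and 0.997 for genotype. The smallest unadjusted p was that of Abcd2 for time (log2 difference 2.82, SE 0.186, limma adjusted p = 0.283). Members with a large difference of responses have large errors in this fit, such as Slco1b2, whose time term was -2.85 and genotype term 0.86, each with an SE of 0.874.

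Other carriers of the hepatocyte and the transcription factors that act on transporter genes were looked at as lists. Of 10 carriers kept, 5 were lower by 2-fold in wildtype at 24 h (against 5.87% of all genes kept) and 1 higher (against 12.8%). In YAP-KO 3 were lower (against 2.24%) and 1 higher (against 4.79%). Slc10a1, the sodium-dependent bile acid uptake carrier NTCP, was at 17.90, 17.65, 16.01 and 16.28 (-1.89 and -1.37). Slc47a1, a canalicular cation exporter, was at 10.94, 10.48, 8.15 and 9.17 (-2.79 and -1.31). The anion carrier gene Slc22a7 (-1.52 and -0.62), the bile acid-CoA ligase gene Slc27a5 (-1.31 and -0.90) and the fatty acid carrier gene Slc27a2 (-1.19 and -0.74) were lower by 2-fold in wildtype, and the lactate carrier gene Slc16a1 was higher there (1.69 and 0.95). Slc10a2, the bile acid carrier ASBT, was 2-fold apart between the genotypes at 0 h, at 9.42 in wildtype and 11.73 in YAP-KO, and its 24 h differences were -0.16 and -1.48, the latter the lowest of the list in YAP-KO. The carrier higher by 2-fold in YAP-KO was Atp8b1, a canalicular phospholipid flippase gene (0.39 and 1.38). Both were named after their values were seen.

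Of 13 transcription factor genes kept, 7 were lower by 2-fold in wildtype (against 5.87% of all genes kept) and 4 in YAP-KO (against 2.24%). In both genotypes 0 were higher (against 12.8% and 4.79%). Nr1h4, which encodes FXR, was at 12.52, 12.30, 10.10 and 11.55 (-2.42 and -0.75). Nr0b2 encodes SHP, the repressor that FXR induces. It was at 8.32, 8.54, 6.22 and 8.83, so that the wildtype 24 h array alone was low (-2.10 and 0.29). Cebpa (-2.43 and -1.28), Nr1i3, which encodes the xenobiotic sensor CAR (-2.27 and -0.84), Ppara (-1.86 and -0.33) and Nr5a2 (-1.80 and -0.50) were the others with the largest wildtype differences, and this choice favours genes with a smaller YAP-KO difference. Of the 4 genes lower in YAP-KO, Hnf4a (-0.90 and -1.45), Nfe2l2, which encodes NRF2 (-0.41 and -1.02), and the aryl hydrocarbon receptor gene Ahr (-0.58 and -1.02) had the larger difference in YAP-KO. In that order, they were already higher in YAP-KO than in wildtype at 0 h, by 0.8, 0.35 and 0.95. Against the wildtype 0 h array (12.29, 9.65 and 10.18), their YAP-KO 24 h levels (11.64, 8.98 and 10.11) were within 2-fold. At 24 h the YAP-KO minus wildtype differences were 0.25, -0.26 and 0.51. A larger fall in YAP-KO thus depends on the 0 h array used. These 3 genes were named after their values were seen. No link between these genes and the transporters was tested.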

How the data were processed

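Total RNA of mouse liver was measured on 4 single-channel arrays, 1 per group (RNA extracted with Trizol and labelled with the GeneChip WT Plus kit, per the labels' protocols). The deposited values are taken as log2 from their range (2.24 to 19.93); the authors' summarisation, background correction and normalization are not given in the sources used here, and no depth applies: the number of arrays limits the precision. Of 65956 probe sets, 30604 carried 1 gene symbol in the platform annotation, 2146 several and 33206 none. The RefSeq table (GRCm38.p6), matched by Entrez identifier, replaced 827 older symbols. Where a gene had several probe sets (355 genes), the one with the highest mean was taken. Differences are between single arrays, called at 2-fold. The additive fit used limma 3.58.1 in R 4.3.3 with Benjamini-Hochberg adjustment over 18085 genes. It was run on simulated data without an interaction of genotype and time, which cannot show how it behaves where the interaction is large. The counting was run on planted differences. Motifs were searched in the RefSeq promoter table, where 51 of the 63 members had an entry.

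The members, gene lists and motifs were chosen with earlier results of these data known. Genes named were all canalicular, basolateral and liver organic anion transporter members, every other member at 2-fold in any comparison, and up to 6 carriers and transcription factors each with the largest wildtype difference; the other kept members are given for completeness. Alternatives were quantile normalization, median centring, no filter or a 60th percentile filter, the mean of probe sets, 1.5-fold calls and the 0 h array of the other genotype as baseline. Some listed genes are not reported here.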

Additional observations from a re-analysis of the deposited data

Results flagged for a closer look

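Members whose 24 h difference had opposite signs in the genotypes, with 2-fold or more in at least 1 of them, were looked at again. There were 3 among the 44 members kept, while 3.08% of all genes kept met the same rule, and with 1 array per group the difference between the genotypes was not tested. Slco2a1 was higher at 24 h in wildtype (1.25) and lower in YAP-KO (-0.51), a difference of responses of -1.76. Abcc3 differed by 0.10 in wildtype and -1.19 in YAP-KO, a difference of -1.29. Abcg5 was lower in wildtype (-1.86) and at 0.07 in YAP-KO, a difference of 1.93. The opposite signs were lost for Abcc3 after quantile normalization, with -0.04 in wildtype and -1.27 in YAP-KO, and for Abcg5 with the other genotype's 0 h array as baseline, with -0.95 in wildtype and -0.84 in YAP-KO. Those of Slco2a1 held under both, with 1.07 and -0.63 after quantile normalization and 1.29 and -0.55 with the other baseline.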

How the results depend on the processing

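Counts of members at 2-fold stayed within 1.5 times under quantile normalization, median centring and the other baseline, with the exception of the genotype comparison at 0 h, which had 0 members and 1 (Abca1) after quantile normalization. At 1.5-fold the counts were 20 members for the YAP-KO 24 h difference and 5 for the genotypes at 0 h, against 11 and 0 at 2-fold, because a lower size calls more genes. No named member at 2-fold changed direction under any of these. Median centring moved the median wildtype difference of all genes kept from 0.07 to 0.22. It changed the split of members from 7 higher and 16 lower to 8 and 15 in wildtype, and from 1 and 10 to 3 and 9 in YAP-KO. The counts were also the same with no filter, a 60th percentile filter and the mean of probe sets, but these cannot alter a member's difference between arrays, since each member has 1 probe set, and say nothing about stability. With the other genotype's 0 h array as baseline, 19 members in wildtype (6 higher, 13 lower) and 14 in YAP-KO (3 higher, 11 lower) were at 2-fold, against 23 and 11; for YAP-KO, Abcc6 was then at -1.13 and Abcg8 at -1.32. The limma fit called 0 members under each setting. Leaving out an array removes its group, so no such fit was made. No paired analysis was possible because each group has 1 array. Without detection calls, differences of dim members such as Slco1a6 are the least certain.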
